A study of Homo sapiens with 14 samples.

Results

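The regions described here are places inside introns where the transcriptional corepressor SKI was found in HL60 cells and where no peak of the transcription factor RUNX1 lay. They were chosen from the second SKI replicate of unmodified cells: each is a peak that the authors classed as intronic, that overlapped by at least 1 bp a SKI peak of the first unmodified replicate and a SKI peak of the CRISPR/Cas9 control cells, and that overlapped no RUNX1 peak. The choice gave 1334 sites among the 14431 peaks of that replicate, and among its 3221 intronic peaks. Presence of SKI in all 3 lists and absence of RUNX1 are therefore the rule, not results.

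HL60 is a human acute myeloid leukaemia cell line, and every sample was chromatin immunoprecipitation followed by sequencing. The SKI lists came from 1 library of CRISPR/Cas9 control cells, called CTR-1, and from 2 libraries of unmodified cells. The RUNX1 list came from 1 library of unmodified cells. Of the 14 samples in all, the remaining 10 were not used here. The labels name no promoter, guide or vector for the control cells and do not say whether CTR-1 is a clone, nor whether the replicates came from separate cultures.

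SKI binds DNA poorly by itself. It is brought to chromatin by partners such as the SMAD proteins of the TGF-beta pathway and recruits corepressor complexes with histone deacetylases. RUNX1 is a DNA-binding factor of blood stem and progenitor cells that acts mostly at enhancers, many of them intronic, and SKI has been described as one of its corepressors in myeloid cells.

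The lists differed in length. They held 14019 SKI peaks in the control cells, 54841 in unmodified replicate 1 and 14431 in unmodified replicate 2, with 5581 RUNX1 peaks. Tags summed over peaks came to 1256986 in the control list, 10241078 in replicate 1 and 1109384 in replicate 2, with 424967 for RUNX1. These sums cover called peaks and are not library depths, which the peak lists do not give. The fold enrichment of a peak is the authors' value and ranks peaks only within 1 list. Each list is a single library. Intervals below are 95% Wilson intervals for shares and order-statistic intervals for medians, and cover counting error over sites only. At myeloid genes the lists held peaks nearest to MPO, the myeloperoxidase gene, in all 4 lists (5 in the control, 6 in replicate 1, 4 in replicate 2 and 3 for RUNX1).

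The promoters of RXRA and RAPGEF1 are shown because each gene held several of the sites inside its body and a SKI peak without RUNX1 in all 3 lists at its start. RXRA encodes the retinoid X receptor alpha, the common partner of the retinoic acid and vitamin D receptors. RAPGEF1 encodes a guanine nucleotide exchange factor that activates the small GTPase RAP1. Both sequences are from RefSeq on GRCh38.p14, in the direction of transcription, around the start of the gene, at 300 bases each. Capitals mark the RUNX motif TGTGGT or TGCGGT, the SMAD motif CAGAC and the GC box GGGCGG, each on either strand.
RXRA, chr9:134326205-134326504, plus strand: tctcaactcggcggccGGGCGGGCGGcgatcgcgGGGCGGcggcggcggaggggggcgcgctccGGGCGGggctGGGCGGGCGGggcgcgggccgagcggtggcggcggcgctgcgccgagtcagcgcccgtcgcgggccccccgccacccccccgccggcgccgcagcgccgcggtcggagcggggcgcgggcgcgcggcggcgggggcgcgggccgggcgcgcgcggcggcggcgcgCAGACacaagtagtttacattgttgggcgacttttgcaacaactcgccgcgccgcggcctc
RAPGEF1, chr9:131740027-131740326, minus strand: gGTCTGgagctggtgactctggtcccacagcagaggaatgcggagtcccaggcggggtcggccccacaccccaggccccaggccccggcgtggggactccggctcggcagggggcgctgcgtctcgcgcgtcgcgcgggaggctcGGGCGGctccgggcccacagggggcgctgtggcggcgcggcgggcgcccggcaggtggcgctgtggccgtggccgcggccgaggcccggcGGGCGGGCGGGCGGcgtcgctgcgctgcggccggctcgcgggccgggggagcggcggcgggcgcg
Both promoters held no RUNX motif of these letters and 1 SMAD motif. RXRA held 6 GC boxes and RAPGEF1 held 4, and in each gene overlapping boxes shared 4 bases. Among 27305 RefSeq promoters of the same length, 19.4% held the RUNX motif, 45% the SMAD motif and 44.6% the GC box. GC content was 84% for RXRA and 83% for RAPGEF1. A match of letters is a description of the sequence and not a site of binding. The SKI peaks lay at -113 bp from the authors' start site for RXRA and at -101 bp for RAPGEF1, where a minus sign means upstream. The authors' coordinates are on hg19 and were not converted, so the peak and the printed window were not laid over each other. The sequences of the sites themselves were not used here.

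Slightly more of the intronic SKI sites lacked RUNX1 than carried it in the lists as deposited. Among the 2411 intronic peaks shared by the 3 SKI lists, 1334 lacked RUNX1, or 55.3% (53.3 to 57.3), and 1077 carried it. With every SKI list held to the length of the RUNX1 list the share was 36.2%, so that most intronic sites then carried RUNX1. Over shared peaks of every class the share without RUNX1 was 69.3%, or 7012 of 10117. The intronic share was near that of exonic peaks (54.6%, 203 of 372), of upstream peaks (57.8%, 293 of 507) and of intergenic peaks (52.9%, 897 of 1696), whose intervals overlap it. Promoter-class peaks, which the authors placed around a start site, stood apart at 83.5% (82.5 to 84.5; 4285 of 5131). Sharing itself was not rare in introns: 74.9% of intronic replicate 2 peaks had a partner in both other SKI lists, against 70.1% of all its peaks.

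SKI enrichment was lower at intronic sites without RUNX1 than at those with it in each of the 3 lists. The median fold enrichment in the control list was 13.9 (13.4 to 14.3) at sites without RUNX1 and 19.5 (18.6 to 20.3) at sites with it. In unmodified replicate 1 the medians were 58.9 (56.6 to 60.6) without and 72.5 (70.8 to 74.3) with RUNX1. In unmodified replicate 2 they were 12.2 (11.8 to 12.7) without and 15.7 (15 to 16.4) with RUNX1. The distributions overlapped widely: in the control list the quartiles were 9.54 and 21 without RUNX1 and 13.3 and 31.9 with it. The ratio of the medians, without over with RUNX1, was 0.715 in the control list, 0.813 in replicate 1 and 0.778 in replicate 2. When each SKI list was held to the 5581 peaks with the lowest p-values, the length of the RUNX1 list, the ratios became 0.874 in the control list, 1.01 in replicate 1 and 1 in replicate 2, so that the direction held only in the control list. That cut broke ties by fold enrichment and removed weak peaks from both groups. It thus narrowed the range of the value compared, and cannot separate list length from peak strength. An exact two-sided sign-flip test of the 3 ratios as deposited, chosen after their values were seen, gave p = 0.25, the smallest that 3 libraries allow.

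The sites without RUNX1 were also narrower and held fewer tags. Their median width was 648 bp in the control list, 1160 bp in replicate 1 and 424 bp in replicate 2, against 783, 1393 and 471 bp in those lists for sites with RUNX1. The part of width in the difference was not tested beyond a split by width. In the wider peaks of that split the ratio was 0.631 in the control list and 0.711 in replicate 2, and in the narrower peaks it was 0.805 in the control list and 0.863 in replicate 2. In replicate 1 it was 0.798 in the wider and 0.795 in the narrower peaks. Median tags per site were 64 in the control list, 392 in replicate 1 and 57 in replicate 2 without RUNX1, and 104, 554 and 72 in those lists with RUNX1.

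**Figure D1:**
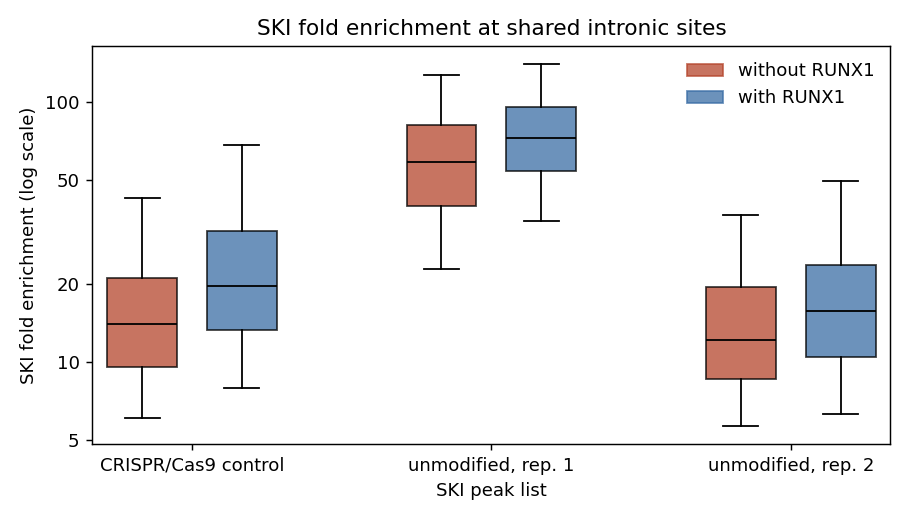
SKI fold enrichment (log scale, the authors' value) at the 1334 intronic sites without RUNX1 and the 1077 with it, in each SKI list. Boxes are quartiles with the median and whiskers run from the 5th to the 95th percentile. In each list the median without RUNX1 sits lower, as in the control list with 13.9 against 19.5, and the boxes overlap.

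Lack of RUNX1 was spread unevenly over the range of enrichment. Of the strongest 10% of shared intronic peaks, 29% (23.7 to 35.1; 70 of 241) lacked RUNX1 by the control list, 42.7% (36.7 to 49.1) by replicate 1 and 41.1% (35.1 to 47.4) by replicate 2. Of the weakest 10%, 78.1% (72.5 to 82.8) lacked it by the control list, 81.4% (76 to 85.8) by replicate 1 and 71.1% (65.1 to 76.4) by replicate 2. RUNX1-free sites were thus present at both ends of the shared intronic peaks, whichever list ranked them. The ends of the whole lists differ from these. In the whole replicate 1 list 50.7% of the sites were among the strongest 10% of peaks, and only 1.95% fell below its middle. Below the middle of the whole list fell 37.1% of the sites in the control list and 37.6% in replicate 2.

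The summits of the 3 lists lay close together at most sites, which the rule of overlapping peaks in part brings about. The median distance between summits was 26 bp for the control list and replicate 1, 31 bp for the control list and replicate 2 and 22 bp for the replicates of unmodified cells. Within 100 bp of each other lay 86.5%, 83.1% and 83.6% of the summit pairs in that order. Intronic sites with RUNX1 were alike, with medians of 27, 29 and 25 bp and shares of 88.5%, 85.8% and 85%. The authors' class was also intron for 95.2% of the sites' peaks in the control list and for 85.8% in replicate 1. Over the 1334 sites the rank correlation of fold enrichment was 0.613 between the control list and replicate 1, 0.557 between the control list and replicate 2, and 0.681 between the replicates. The points share libraries and their genomic setting, and no test was made of these correlations.

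RUNX1 peaks lay near a minority of the sites without overlapping them. The nearest RUNX1 peak lay a median of 55.4 kb away, and 84 sites (6.3%) had one within 1 kb and 315 (23.6%, 21.4 to 26) within 10 kb. The same share within 10 kb was 14.1% for promoter-class SKI peaks without RUNX1 and 19% for intergenic ones. The closest was a site nearest to LMNA, the lamin A/C gene, at chr1:156066441-156066730 on hg19. Its gap to RUNX1 was 6 bp and its SKI fold enrichment was 11.3 in the control list, 32.4 in replicate 1 and 7.97 in replicate 2. Next came a site at AKNA with a gap of 23 bp and one at HPS3, whose product takes part in lysosome-related organelle biogenesis, with a gap of 31 bp. The HPS3 site reached 24.1 in the control list, 191 in replicate 1 and 30.2 in replicate 2. At all 3 a SKI peak of another list touched RUNX1. On the other side of the rule, intronic shared peaks at RP11-79M19.2 and MIR4513 overlapped RUNX1 by 1 bp and one at TBC1D2B by 2 bp.

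The judgement of overlap rested on the narrow replicate 2 peak. The overlapping SKI peak touched RUNX1 at 40 sites (3%) in the control list and at 86 (6.45%) in replicate 1, with 86 sites touching in either and 1248 in neither. At the 86 the median gap from the replicate 2 peak to RUNX1 was 430 bp and the largest was 2828 bp. These sites had a median SKI fold enrichment of 17.6 in the control list, 68.8 in replicate 1 and 10.2 in replicate 2. The 1248 had 13.8, 57.9 and 12.4 in those lists.

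**Figure D2:**
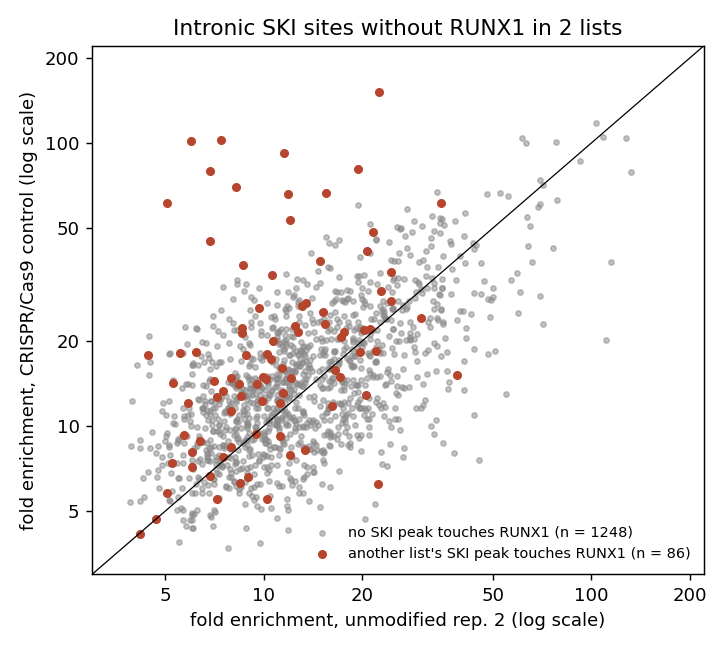
SKI fold enrichment of each site in the CRISPR/Cas9 control list (vertical, log scale) and in unmodified replicate 2 (horizontal, log scale). Filled red points are the 86 sites whose overlapping peak in another SKI list touches RUNX1, and grey points the other 1248; many of the points far above the line of equal values are red.

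Control and replicate 2 disagreed most in rank at border sites in 1 direction only, that of a higher rank in the control list. Each site took the value of the whole overlapping peak, which at a border site can include the stretch that touches RUNX1. The control peak itself touched RUNX1 at 40 of the 86 border sites. The part of such contact in the ranks was not tested. The 3 sites ranked much higher in the control list were nearest to DCPS, the scavenger decapping enzyme gene, to a Y_RNA gene and to C20orf112. The DCPS site, chr11:126189221-126189683, had 61.3 in the control list, 89.7 in replicate 1 and 5.09 in replicate 2, and lay 0.275 kb from RUNX1. The Y_RNA site had 102, 56.3 and 6 in those lists and lay 0.211 kb from RUNX1, and the C20orf112 site had 79.5, 86.6 and 6.87 and lay 0.773 kb from it. At all 3 a SKI peak of another list touched RUNX1. The 3 sites ranked much lower in the control list had no such contact. They were nearest to RP11-523L20.2, with 7.58 in the control list, 162 in replicate 1 and 45.4 in replicate 2, to AL596137.1, with 8.05, 113 and 38.1, and to BCL6, with 5.29, 41.3 and 21.9. BCL6 encodes a zinc-finger repressor that itself works through corepressors.

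The sites lay some distance from transcription start sites, as the intronic rule allows. The median distance to the nearest start site was 7800 bp (quartiles 3535 and 16909) without RUNX1, and 8313 bp (3911 and 18963) with RUNX1. Within 10 kb lay 59.1% (56.5 to 61.8) of the sites, against 56.4% (53.4 to 59.3) of intronic sites with RUNX1 and 58.7% of the other 1887 intronic peaks of replicate 2. Downstream of the nearest start site lay 58.3% without and 57% with RUNX1. These intervals overlap between the groups. The nearest gene was protein-coding at 69.6% of sites without RUNX1 and at 63.5% of sites with it. It need not be the gene whose intron holds the site. The start site is that of the nearest transcript, so a site upstream of it can still lie within the gene.

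**Figure D3:**
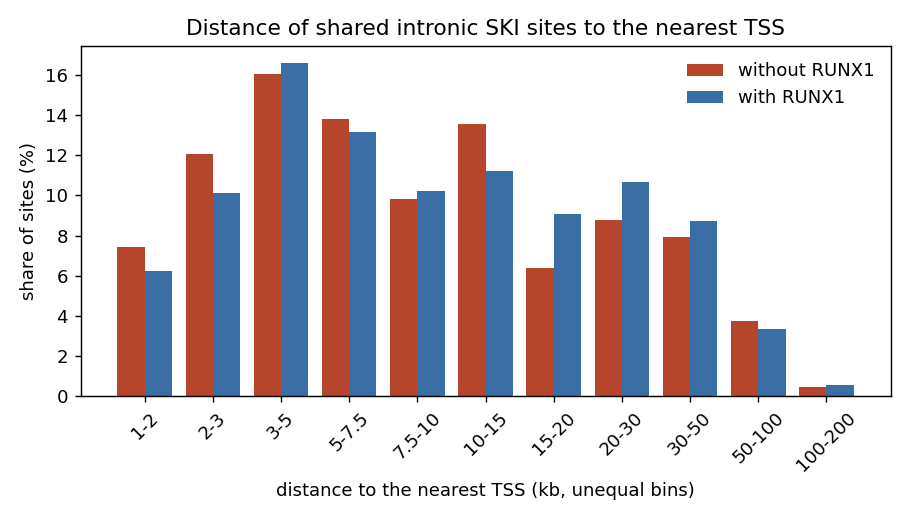
Share of shared intronic SKI sites (vertical, %) by distance to the nearest transcription start site (horizontal, kb, bins of unequal width), without RUNX1 in red and with it in blue. The groups follow each other closely, with 16% without and 16.6% with RUNX1 in the bin from 3 to 5 kb.

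Distance and strength moved together to a small degree. Sites under 5 kb from a start site (474) had a median fold enrichment of 12.6 in the control list, 55.1 in replicate 1 and 11.7 in replicate 2. The 56 sites beyond 50 kb had 19.6, 73.1 and 15.7 in those lists. The share of shared intronic peaks that lacked RUNX1 was 57.1% beyond 50 kb and 57.2% under 5 kb.

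Most genes held 1 site, and a minority held several. The 1334 sites had 1101 nearest genes: 925 had 1 site, 138 had 2, 26 had 3, 8 had 4 and 4 had at least 5. These counts are of replicate 2 peaks. In the control list 61 sites shared their overlapping peak with another site, and in replicate 1 100 sites did. Sites with another site within 10 kb made up 17.9% (16 to 20.1) without RUNX1 and 18.7% (16.4 to 21.1) of those with it. For 34% (31.5 to 36.5) of the sites, the nearest gene also had a promoter-class SKI peak in all 3 lists, against 29% (26.3 to 31.7) for intronic sites with RUNX1. With SKI lists of the length of the RUNX1 list, it was 17% of the sites without RUNX1. For 41.8% of the sites the nearest gene had a RUNX1 peak elsewhere, and for 22.4% it had an intronic SKI site with RUNX1. Counted by gene, these shares were 37.2% and 19% of the 1101, which include genes that are not protein-coding. Over all protein-coding genes the second share was 2.68%, and the first was not computed. None of these shares was corrected for gene length.

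ZMIZ1, a PIAS-like coactivator of several transcription factors, had the most sites with 8 among its 15 shared SKI peaks, of which 2 others were intronic with RUNX1. Its strongest site, chr10:80853354-80854256, had 26.7 in the control list, 98.5 in replicate 1 and 26.7 in replicate 2. All 3 of its promoter-class SKI peaks lacked RUNX1.

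RXRA had 5 sites, led by chr9:137248756-137249275 with 43.6 in the control list, 71.5 in replicate 1 and 16.5 in replicate 2. Its weakest in replicate 2, at 4.51, had 16.9 in the control list and 47.4 in replicate 1. The RXRA site at chr9:137288668-137289197 lay 0.079 kb from RUNX1, and a SKI peak of another list there touched it. The promoter peak shown above by its sequence had 6.8 in the control list, 33.1 in replicate 1 and 17.2 in replicate 2. ETV6, an ETS-family repressor needed by blood stem cells, had 5 sites, with 26.2 in the control list, 61 in replicate 1 and 11.9 in replicate 2 at the strongest of them by the control list. Its promoter peak carried RUNX1. ZFP36L2, which promotes decay of AU-rich mRNAs, was nearest to 4 sites, at 12649 to 57159 bp downstream of its start. They need not lie in its own introns. The strongest had 23.7 in the control list, 81.8 in replicate 1 and 34 in replicate 2.

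ITPR2, the type 2 receptor for inositol trisphosphate on the endoplasmic reticulum, had 4 sites and no intronic site with RUNX1. Its strongest, chr12:26780342-26780805, had 19.4 in the control list, 122 in replicate 1 and 13.8 in replicate 2. RAPGEF1 had 4 sites beside 5 intronic SKI sites with RUNX1, so both kinds lay in the same gene. One of its sites had 15.2 in the control list, 71.7 in replicate 1 and 39 in replicate 2, and a SKI peak of another list there touched RUNX1. The same held for its site at chr9:134608346-134608735, which lay 0.274 kb from RUNX1. FBLN1, which encodes the matrix protein fibulin-1, had 4 sites within 11.3 kb. Their fold enrichment in replicate 2 ran from 4.45 to 24.5. At chr22:45978602-45979242 and chr22:45980784-45981215 a SKI peak of another list touched RUNX1, which lay 0.842 and 0.211 kb from these sites.

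**Figure D4:**
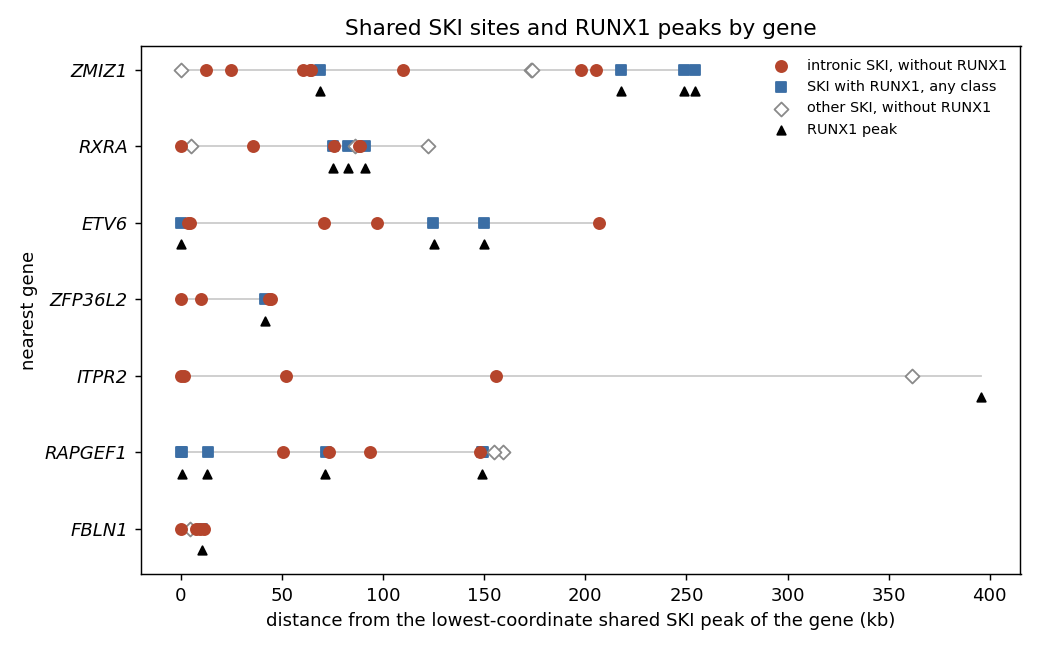
Shared SKI peaks and RUNX1 peaks assigned to genes with the most sites, by distance (kb) from the lowest-coordinate shared SKI peak of each gene. Red circles are intronic SKI sites without RUNX1, blue squares SKI peaks with RUNX1, open diamonds other SKI peaks and triangles RUNX1 peaks; in ZMIZ1 8 red circles lie among 4 triangles.

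The 12 sites ranked best over the 3 lists lay near genes of varied function. The first by rank was nearest to MARCH3, with 101 in the control list, 168 in replicate 1 and 77.8 in replicate 2. Sites nearest to MIR4439 and PIK3R5 followed it. Those described next ranked lower among the 12. The site nearest to MMP2, the gelatinase A gene, had 105 in the control list, 121 in replicate 1 and 108 in replicate 2. It lay at -5147 bp from the start of the nearest MMP2 transcript, which need not be the first start of the gene. SNX25, a sorting nexin, was nearest to a site with 38.1 in the control list, 156 in replicate 1 and 114 in replicate 2. NSF, an ATPase of membrane fusion, held one with 54.6, 133 and 63.6. CCL3L1 belongs to a multi-copy chemokine family and NSF has near-identical copies nearby, so the placing of reads there is uncertain. The widest site of all, 2305 bp at ERICH1, had 86 in the control list, 130 in replicate 1 and 92.4 in replicate 2.

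Genes that the study is named for were among the members. SKI itself was nearest to a site at chr1:2231489-2232182, with 14.9 in the control list, 62.9 in replicate 1 and 17.1 in replicate 2. It lay at -3164 bp from the start of the nearest SKI transcript, which need not be the first start of the gene. A RUNX1 peak lay 0.209 kb away and a SKI peak of another list touched it. RUNX1 was nearest to 3 sites, of which the strongest, chr21:36800759-36801156, had 18 in the control list, 67.4 in replicate 1 and 17.5 in replicate 2. SKIL, the close relative of SKI, was nearest to no site.

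Haematopoietic transcription factors had the largest share of members with a site among the 11 gene lists compared. Of all 20052 protein-coding genes, 718 (3.58%) had at least 1 site, and 538 (2.68%) an intronic SKI site with RUNX1. Of 42 haematopoietic factors, 13 (31%, 19.1 to 46) had a site and 8 (19%) an intronic site with RUNX1. They were BCL6, EGR3, ERG, ETS1, ETV6, FOXP1, GFI1, IKZF1, LYL1, RUNX1, RUNX2, SPI1 and ZFPM1. With SKI lists of the length of the RUNX1 list, 5 of the 42 had a site, and 13 genes over all lists in place of 44. The sites themselves then numbered 323 in place of 1334. The share of all protein-coding genes was not computed for that setting. A shared SKI peak of any class was found for 64.3% of the haematopoietic factors and 22.9% of all protein-coding genes. For cytoskeleton and adhesion genes it was 80%, and for myeloid maturation genes 72.2%. The interval of the haematopoietic share overlapped those of the cytoskeleton list (11.8 to 40.9) and the corepressor list (8.51 to 37.9). The shares were not corrected for gene or intron length. ZFPM1, the GATA cofactor FOG1, had 36.1 in the control list, 162 in replicate 1 and 15.9 in replicate 2. ERG, an ETS factor of stem cells, had 36.5, 88.6 and 15.7 in those lists.

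In the TGF-beta and SMAD list, 4 of 34 genes had a site (11.8%, 4.67 to 26.6) and 6 an intronic site with RUNX1. SMAD3, a receptor-activated SMAD, had 24.8 in the control list, 87.2 in replicate 1 and 18.7 in replicate 2 at chr15:67468050-67468466 on hg19. SMURF1, a ubiquitin ligase for SMADs and their receptors, had 9.3, 91.9 and 21 in those lists. SMAD2 lay far lower at 4.45, 25.9 and 7.02.

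Corepressor complexes had 5 of 26 genes with a site (19.2%, 8.51 to 37.9) and 2 with an intronic site with RUNX1. Among them were the class IIa histone deacetylase genes HDAC4, HDAC5 and HDAC7. HDAC4 reached 21.6 in the control list, 70.2 in replicate 1 and 11.2 in replicate 2. The retinoid list had 3 of 24, namely RXRA, RARA, whose product binds retinoic acid, and ASB2, a ubiquitin ligase subunit induced by retinoic acid. The ASB2 site had 11.6 in the control list, 58.2 in replicate 1 and 19.7 in replicate 2.

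Cytoskeleton and adhesion genes had 7 of 30 (23.3%, 11.8 to 40.9) with a site and 10 with an intronic site with RUNX1. MYO1F, a leukocyte myosin, had 22.9 in the control list, 89.4 in replicate 1 and 15.4 in replicate 2, and VAV1, an exchange factor of blood cells, had 15.1, 80.7 and 22.6. A SKI peak of another list at the MYO1F site touched RUNX1. Kinase signalling had 5 of 30, DUSP10, PIK3R5, PIK3R6, PRKCB and SPRED2, and myeloid maturation 4 of 36. NCF1, a subunit of the phagocyte oxidase with near-identical pseudogenes and therefore uncertain, had 53.4 in the control list, 72.5 in replicate 1 and 12 in replicate 2, and there too a SKI peak of another list touched RUNX1. CSF1R, the receptor of macrophage colony-stimulating factor, had 17.1, 55 and 10.5. Inflammatory signalling had 1 of 32 genes, TNFRSF1B. The lymphoid list had 1 of 30, CD4, and the neuronal list 1 of 30, STX1A. No ribosomal protein gene of 30 had a site, which leaves up to 11.4% by the interval.

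**Figure D5:**
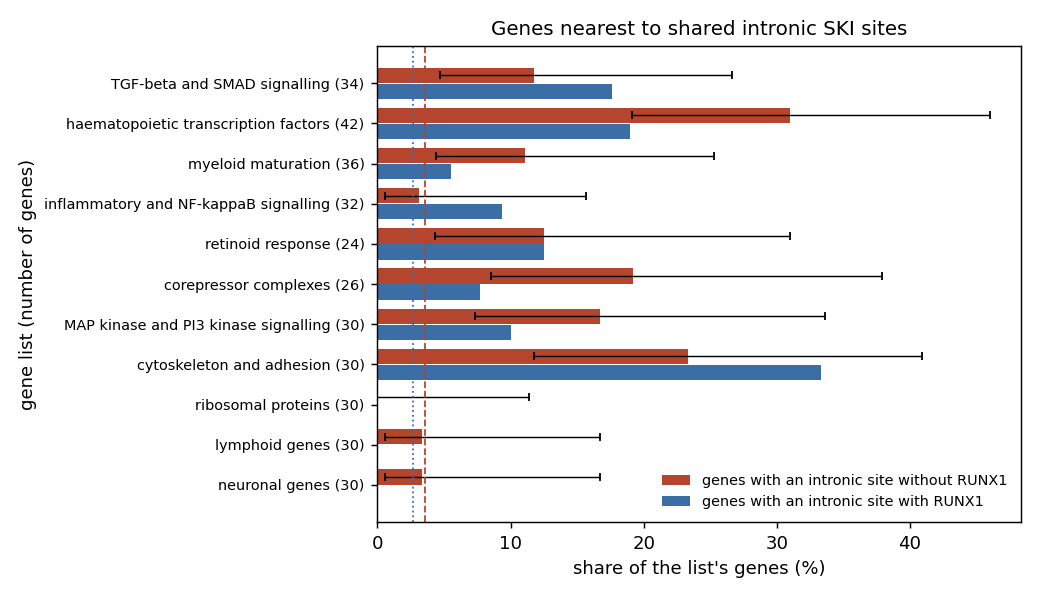
Share of each gene list (horizontal, %) with an intronic SKI site without RUNX1 (red) and with it (blue), with 95% Wilson intervals on the red bars. Dashed and dotted lines mark all protein-coding genes at 3.58% without and 2.68% with RUNX1; the haematopoietic transcription factors reach 31% without RUNX1.

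Only 66 sites, or 4.95%, had a nearest gene in any of these lists, so the lists describe a small part of the sites. By chromosome, sites on chromosome 8 (32) and X (29) were stronger and those on chromosome 18 (37) weaker than the rest. The median in the control list was 25.4 on chromosome 8, 25 on X and 8.93 on chromosome 18, against 13.8 elsewhere. In replicate 1 the medians were 92.6, 110 and 30.6 for these chromosomes, against 58.3 elsewhere. The whole lists moved the same way, with a control list median of 19.1 on chromosome 8, 20.2 on X and 8.16 on chromosome 18, against 11.6 elsewhere. Sites without RUNX1 were not weaker than those with it on chromosome 8 and X in the control list and replicate 2. The medians with RUNX1 were 24.4 and 16.4 on chromosome 8 (15 sites) and 24.4 and 22 on X (19 sites). Without RUNX1, replicate 2 had 25.1 on chromosome 8 and 22.2 on X. In replicate 1 they were weaker, as 125 and 123 with RUNX1 show.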

How the data were processed

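Per the submitters' processing notes, the tools were bcl2fastq, Bowtie2, MACS 1.4 and deepTools on hg19. Their roles and settings, and how reads with several placements were treated, were not stated in the labels or headers read here. Each SKI or RUNX1 library has 1 deposited peak list. The authors' columns give tag counts per peak, -log10 p-values (lowest 5) and fold enrichment, a ratio over background, with class and nearest gene.

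The rule was applied with Python 3.11.15, numpy 2.4.6, pandas 2.3.3 and scipy 1.17.1, and the overlap code was tested on simulated data. Where several peaks of another list overlapped a site, the one with the highest fold enrichment was used. Sites were named by fixed ranks: the 12 best by worst rank over the lists, the 8 genes with most sites (1 of them is not reported here), up to 4 per gene list, the 3 on either side of the RUNX1 rule, 3 per direction by rank in the control list, the 2 widest, and SKI, SKIL and RUNX1. Members, lists and motifs were chosen with earlier results of these data known. Of the lists' protein-coding nearest genes, 96.5% matched a RefSeq symbol.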

Additional observations from a re-analysis of the deposited data

How the results depend on the processing

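Alternatives for the main results gave 89 values inside the interval of the reported value or, for counts, within 1.5 times of it, 32 outside and 1 with the direction turned. With every SKI list held to the length of the RUNX1 list, the sites numbered 323 and the share lacking RUNX1 was 36.2%. The median fold enrichment became 25.6 in the control list, 87.2 in replicate 1 and 22.1 in replicate 2, the ratio without over with RUNX1 0.874, 1.01 and 1, the share within 10 kb of a start site 54.5%, the summit distances from the control list 23 bp to replicate 1 and 22 bp to replicate 2, the share with a SKI promoter 17% and the genes of the lists with a site 13. By list these were 5 haematopoietic factors, 2 each for TGF-beta and cytoskeleton, 1 each for retinoid, corepressor and kinase genes and 0 for myeloid maturation. At a -log10 p of at least 10 the share lacking RUNX1 was 52.5%, the medians 14.9, 64.4 and 13.9, the ratio in replicate 1 0.866 and the share with a SKI promoter 29.3%. With no RUNX1 peak allowed within 1000 bp, the share was 51.8% and the distance to RUNX1 62.4 kb. Leaving out sites where another list's peak touches RUNX1, an alternative chosen after seeing the data, gave 62.9 kb. Narrower and wider peaks gave ratios of 0.805 and 0.631 in the control list 0.863 and 0.711 in replicate 2, and 0.795 and 0.798 in replicate 1. Distances of 5 and 20 kb gave 35.5% and 79.1%. The cause of these changes was not tested. Leaving out the control or the replicate 1 list gave 1364 to 2000 sites, a share of 55.2% to 63.5%, medians of 48 in replicate 1 and 11 to 12.1 in replicate 2, a replicate 1 ratio of 0.675 and a promoter share of 35.4% to 40.5%. The replicate 2 list defines the sites and could not be left out. No paired analysis was possible because control and unmodified cells share only replicate number 1. Motif windows around summits were not run, for want of a genome of the files' build. The ratio stayed below 1 in 26 of 28 alternatives. Tag numbers limit which weak RUNX1 or SKI peaks were called, so lack of a peak is not lack of binding.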

Other observations

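Of the 8 genes with 4 sites, PACSIN2, which shapes membranes during endocytosis, HDAC4 and TSPAN14, a tetraspanin, stood beside those described above, and genes with 3 sites included BCOR, a BCL6 corepressor, CDK6, the cell cycle kinase, and ELF4, an ETS factor. BCOR, CDK6 and ELF4 were picked after their values were seen. The BCOR sites had 18.1, 15.9 and 14.9 in the control list, 147, 83.1 and 147 in unmodified replicate 1 and 20.9, 26.6 and 22.2 in unmodified replicate 2. The ELF4 sites had 30.8, 13.8 and 30.8 in the control list, 121, 110 and 121 in replicate 1 and 33, 17.6 and 9.66 in replicate 2. Both genes lie on X, where SKI peaks were stronger in general. The CDK6 sites had 10, 8.57 and 8.57 in the control list, 64.2, 88.1 and 88.1 in replicate 1 and 13.2, 10.4 and 15.8 in replicate 2. Equal values of 1 gene in the control list or replicate 1 can come from a single peak that overlapped several sites.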
